A study of Mus musculus with 8 samples.

Results

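Krüppel-like factors (KLFs) are transcription factors whose genes are named Klf followed by a number. The genes described here are Klf2, Klf3, Klf4, Klf6, Klf7, Klf9, Klf10, Klf11, Klf13 and Klf16, which were found by symbol in the deposited table, and they are 10 of the 17 KLF genes among its 54532 genes. The set was selected on CPM (read counts scaled to library size) in WT against Gsdmd-/- macrophages, with that difference already known, so these values are given as a description. Where it is said how many of the 10 genes passed a threshold in the fit over all genes, that count is part of the description and no independent evidence.

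The samples were bone marrow-derived macrophages, grown from bone marrow with macrophage colony-stimulating factor for 6 days and left without treatment, with 4 WT and 4 Gsdmd-/- libraries. Per the study's methods, the marrow came from young adult female C57BL/6J mice, WT mice were bought from a supplier and Gsdmd-/- mice, which lack gasdermin D, were a gift from another laboratory, so genotype and source of the mice cannot be told apart. The sources used here do not say whether each library came from its own mouse, so p-values measure only the spread between these libraries, which may be technical. In a bulk culture, fewer cells that express a gene and less RNA of it per cell cannot be told apart either.

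KLFs bind GC-rich DNA and the CACCC box through 3 zinc fingers at the carboxyl end, and they differ in the parts that precede the fingers. KLF2, KLF4, KLF6 and KLF7 are mainly known as activators, KLF3 recruits the CtBP corepressors, and KLF9, KLF10, KLF11, KLF13 and KLF16 can recruit the Sin3A corepressor. In macrophages, KLF2 and KLF4 are known for restraining inflammatory gene expression, KLF4 for the differentiation of monocytes, and KLF6 for promoting inflammatory gene expression.

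The shared fingers were visible in the coding sequences. In GENCODE M21, the longest open reading frame of each of the 10 genes held 3 fingers in a block of 81 residues, followed by 1 to 43 residues. Over the 45 pairs of genes, the identity of the block ran from 60.5% (Klf6 with Klf9) to 95.1% (Klf6 with Klf7), with a median of 69.1%. Klf2 and Klf4 shared 91.4% and Klf10 and Klf11 shared 86.4% of the 81 residues. The coding bases of the last finger are shown for the closest activator pairs and for the closest Sin3A pair, whose levels are compared below, with the codons of the 2 cysteines and 2 histidines that hold the zinc ion in capitals.
Klf2: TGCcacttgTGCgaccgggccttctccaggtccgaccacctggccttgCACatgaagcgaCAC
Klf4: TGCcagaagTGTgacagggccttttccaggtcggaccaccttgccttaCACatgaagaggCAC
Klf6: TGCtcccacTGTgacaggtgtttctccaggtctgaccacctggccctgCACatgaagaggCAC
Klf7: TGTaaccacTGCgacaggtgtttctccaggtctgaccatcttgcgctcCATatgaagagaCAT
Klf10: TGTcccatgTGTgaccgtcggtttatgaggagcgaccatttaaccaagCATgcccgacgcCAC
Klf11: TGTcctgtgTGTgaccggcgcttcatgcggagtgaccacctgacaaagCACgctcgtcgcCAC

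Promoters were examined for 8 of the 10 genes, Klf10 and Klf16 being the ones without an entry, in the 250 bases before the RefSeq start site on GRCm38.p6. For Klf7 all of this window lay past the start annotated in GENCODE, inside the gene. The windows of Klf2, Klf3, Klf6 and Klf11 reached past that start in part, with 117 bases of Klf3 and 153 of Klf11 before it. The 8 windows were rich in G and C, with 59.2% to 78.4% against a median of 52.4% over all 32817 windows, and they held 13 to 32 CpG dinucleotides against a median of 6. The Klf7 window, which is counted throughout, gave the lowest value of both. The GC box GGGCGG, added to the search after the sequences had been seen, was found in 7 of the 8 windows and in 32.7% of all windows, counting both strands. CACCC was found in 5 of 8 windows (52.0% of all), CCAAT in 4 (33.8%) and the E-box CACGTG in 3 (6.02%). The MEF2 motif, searched by name, was found in 1 window, that of Klf2 (2.92% of all), from 118 to 109 bases before the start site. The AP-1 motif TGACTCA (4.46% of all), the cyclic AMP response motif TGACGTCA (1.55%), the TATA motif TATAAA (12.4%) and the longer KLF box CCACACCC (3.19%) were in none of the 8 windows. Nor were the NF-kB (7.25%) and serum response (CArG, 1.47%) motifs, searched by name. The MEF2 motif in the Klf2 window does not overlap another of these motifs, and a match is only a run of letters, not a bound site.

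The windows of 4 genes are shown, of Klf2 for the difference between the genotypes, of Klf4 as its closest relative, and of Klf6 and Klf9 because they moved in opposite directions among the WT libraries. They read in the direction of the gene and stop before the start annotated in GENCODE, and capitals mark MEF2, CACGTG and CCAAT matches on either strand. Klf2 lies on the plus strand at chr8:72318812-72319032, Klf4 on the minus strand at chr4:55532476-55532725, Klf6 on the plus strand at chr13:5861239-5861481 and Klf9 on the plus strand at chr19:23140976-23141225.
Klf2: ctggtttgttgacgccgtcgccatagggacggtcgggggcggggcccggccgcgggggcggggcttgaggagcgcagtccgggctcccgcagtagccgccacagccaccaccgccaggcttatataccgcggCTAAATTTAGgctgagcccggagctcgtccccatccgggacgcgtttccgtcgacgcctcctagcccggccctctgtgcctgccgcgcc
Klf4: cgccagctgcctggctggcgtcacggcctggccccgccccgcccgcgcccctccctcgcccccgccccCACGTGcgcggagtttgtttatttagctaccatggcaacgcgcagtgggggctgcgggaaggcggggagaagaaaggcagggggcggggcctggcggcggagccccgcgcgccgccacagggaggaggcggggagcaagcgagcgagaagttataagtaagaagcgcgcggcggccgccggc
Klf6: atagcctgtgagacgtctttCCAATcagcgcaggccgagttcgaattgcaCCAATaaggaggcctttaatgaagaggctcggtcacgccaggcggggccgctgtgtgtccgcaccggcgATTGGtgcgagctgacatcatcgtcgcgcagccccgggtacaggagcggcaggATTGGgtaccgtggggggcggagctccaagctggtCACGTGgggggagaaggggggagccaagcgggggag
Klf9: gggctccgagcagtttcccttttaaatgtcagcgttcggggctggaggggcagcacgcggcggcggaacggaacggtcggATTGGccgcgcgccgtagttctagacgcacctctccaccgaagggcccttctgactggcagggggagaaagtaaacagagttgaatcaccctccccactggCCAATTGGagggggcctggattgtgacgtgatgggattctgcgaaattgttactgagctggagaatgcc

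The libraries were of similar depth, with 14935114 to 16794810 counts each. Gsdmd itself, at 63.5 to 95.5 CPM in the WT and 14.4 to 18.2 CPM in the Gsdmd-/- libraries, followed the labels. WT 2 and WT 3 stood apart from the other 6 libraries on the first principal component of all genes tested (43.6% of the variance), with scores of 45.4 and 38.8 against -25.9 to -7.19. Macrophage markers were high, with Lyz2 at 12999 CPM or more and Csf1r at 938 CPM or more in every library, although C1qa ranged from 4.46 to 77.6 CPM and Fcgr1 from 6.66 to 40.7 CPM among the WT libraries. Of the 8 macrophage markers, Adgre1, which encodes F4/80, was lower in Gsdmd-/- libraries without overlap, as 4.12% of all genes were (303 ± 23.3 and 258 ± 13.8 CPM, SD, n = 4 each, log2 fold change -0.24, adjusted p = 0.310), and its part in the KLF levels was not tested. Among the lymphoid markers, Cd3e, Cd3g, Ms4a1 and Ncr1 had at most 0.122 CPM and Cd79a at most 0.305 CPM in any library. Of the 6 endothelial markers, Tek had no count in any library, Emcn and Pecam1 had at most 0.855 CPM, and the summed level, mostly Vwf and Kdr, was 142 to 267 CPM in WT and 133 to 212 CPM in Gsdmd-/- libraries. The summed lymphoid level was 0.0611 to 0.609 CPM in WT and 0 to 0.237 CPM in Gsdmd-/- libraries. Among the 3 endothelial genes tested, Cdh5 was at the study's cutoff on the lower side, as 3.28% of all genes were (5.18 ± 1.00 and 3.66 ± 0.900 CPM, SD, n = 4 each, log2 fold change -0.51, adjusted p = 0.402). Vwf and Kdr had log2 fold changes of -0.52 and 0.62, with adjusted p of 0.536 and 0.535. The genotypes overlapped in all 3 genes. Lymphoid and endothelial cells are known for high Klf2, and their part in the Klf2 level was not tested.

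The 10 genes covered a wide range of expression. Divided by exon length, Klf6 was the highest, with 70.4 CPM per kilobase (kb) of exon in WT and 90.4 in Gsdmd-/- macrophages, and held between 36.3% and 49.2% of the summed length-scaled level of the 10 genes in every library. Klf4 followed with 22.5 and 25.7, Klf13 with 23.1 and 24.0, and Klf9 with 20.04 and 15.9 CPM per kb, and the ranges of these genes over the 8 libraries overlapped. Klf10 had 15.4 and 11.8, with a range that overlapped that of Klf9, although Klf9 was the higher in all 8 libraries. The lowest library of Klf10 (11.2 CPM per kb) was above the highest of Klf16 (8.73 CPM per kb). Klf16, with 7.23 and 7.96, and Klf2, with 4.50 and 8.44 CPM per kb, changed order between the genotypes, Klf16 being the higher in 5 of 8 libraries. Klf3 (2.77 and 3.28), Klf7 (1.97 and 1.22) and Klf11 (0.731 and 0.603 CPM per kb) were the lowest. The ranges of Klf2 and Klf3, of Klf3 and Klf7 and of Klf7 and Klf11 overlapped. These lengths count every annotated exon, so a gene that uses few of them is understated.

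**Figure D1:**
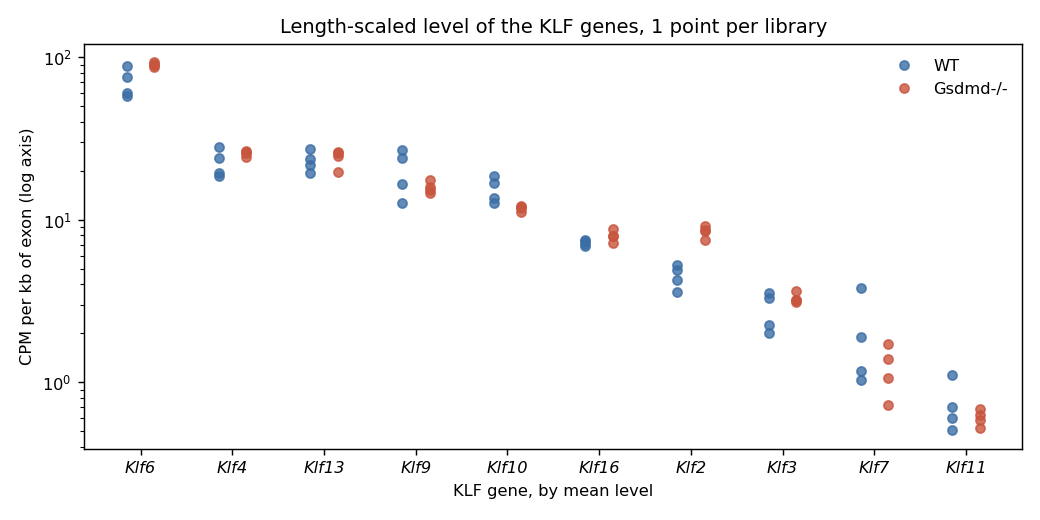
Level of each KLF gene in each library as CPM per kb of exon (log axis), with WT in blue and Gsdmd-/- in red and genes ordered by mean level. Klf6 lies above all others in every library, and Klf4, Klf13 and Klf9 overlap.

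Of the other 7 KLF genes, Klf8, which like Klf3 can recruit CtBP, was the only one with enough counts to be tested. It had 7.49, 5.38, 4.09 and 5.66 CPM in WT 1 to 4 and 5.92, 6.62, 5.96 and 7.10 CPM in Gsdmd-/- 1 to 4, with overlap (log2 fold change, Gsdmd-/- over WT and called the log2 ratio here, 0.18, standard error (SE) 0.186, adjusted p = 0.755). Klf1, the erythroid member, Klf5, Klf12 and Klf15 had at most 0.550 CPM in any library, and Klf14 and Klf17 had no count, which allows up to 3 counts or between 0.179 and 0.201 CPM per library for counting error only.

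Among the activators, Klf2, which is best known from endothelial cells and resting lymphocytes, was higher in Gsdmd-/- macrophages. It had 9.01, 6.66, 7.82 and 9.74 CPM in WT 1 to 4 and 16.8, 13.8, 16.0 and 15.7 CPM in Gsdmd-/- 1 to 4, from 109 to 160 and from 234 to 284 counts. The lowest Gsdmd-/- library was thus above the highest WT library, and the means of 8.31 ± 1.35 and 15.6 ± 1.26 CPM (SD, n = 4 each) stood in a ratio of 1.88 (log2 ratio 0.91, SE 0.138). Klf2 was the only one of the 10 genes with an adjusted p under 0.05 in the fit over all genes, where 0.349% of 12911 genes had one (0.139% higher and 0.209% lower in Gsdmd-/-). It was also the only one at the cutoff of the study, a log2 fold change of 0.5 or more in either direction with an unadjusted p under 0.05, which 4.83% of all genes met. The call at the adjusted p was lost when WT 2, WT 3 or any 1 of the Gsdmd-/- libraries was left out, with 0 of the 10 genes called, while the log2 ratio stayed between 0.81 and 1.00 in all 8 such fits.

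Klf4, the closest relative of Klf2, did not show this separation. Its levels were 85.6, 59.4, 56.4 and 72.8 CPM in WT 1 to 4 and 81.2, 79.5, 74.5 and 78.6 CPM in Gsdmd-/- 1 to 4. All 4 Gsdmd-/- libraries lay inside the WT range, between WT 4 and WT 1, and WT 2 and WT 3 were the lowest of all. The means were 68.5 ± 13.4 and 78.4 ± 2.85 CPM (SD, n = 4 each), a log2 ratio of 0.19 (SE 0.127) that was -0.02 without WT 2 and WT 3. Leaving out 1 library gave ratios from 0.11 (without WT 3) to 0.32 (without WT 1).

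Klf6, the most abundant of the 10, resembled Klf4. It had 388, 264, 252 and 333 CPM in WT 1 to 4 and 385, 409, 396 and 399 CPM in Gsdmd-/- 1 to 4. WT 1 reached the level of the Gsdmd-/- libraries and WT 2 and WT 3 were again the lowest. The means were 309 ± 63.6 and 397 ± 9.89 CPM (SD, n = 4 each), and the log2 ratio of 0.36 (SE 0.132) was 0.14 without WT 2 and WT 3.

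Klf7, whose finger block is the closest to that of Klf6 and which is known from neurons and adipocytes, differed most between libraries of the same genotype, with coefficients of variation (SD over mean) of 64.7% in WT and 34.6% in Gsdmd-/-. It had 30.9, 9.47, 8.37 and 15.5 CPM in WT 1 to 4 and 8.65, 13.9, 5.90 and 11.3 CPM in Gsdmd-/- 1 to 4. WT 1 was above every other library, and 3 of the 4 Gsdmd-/- libraries lay inside the WT range. The log2 ratio of -0.69 had an SE of 0.405 and was -0.16 without WT 1 and -1.23 without WT 2 and WT 3.

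**Figure D2:**
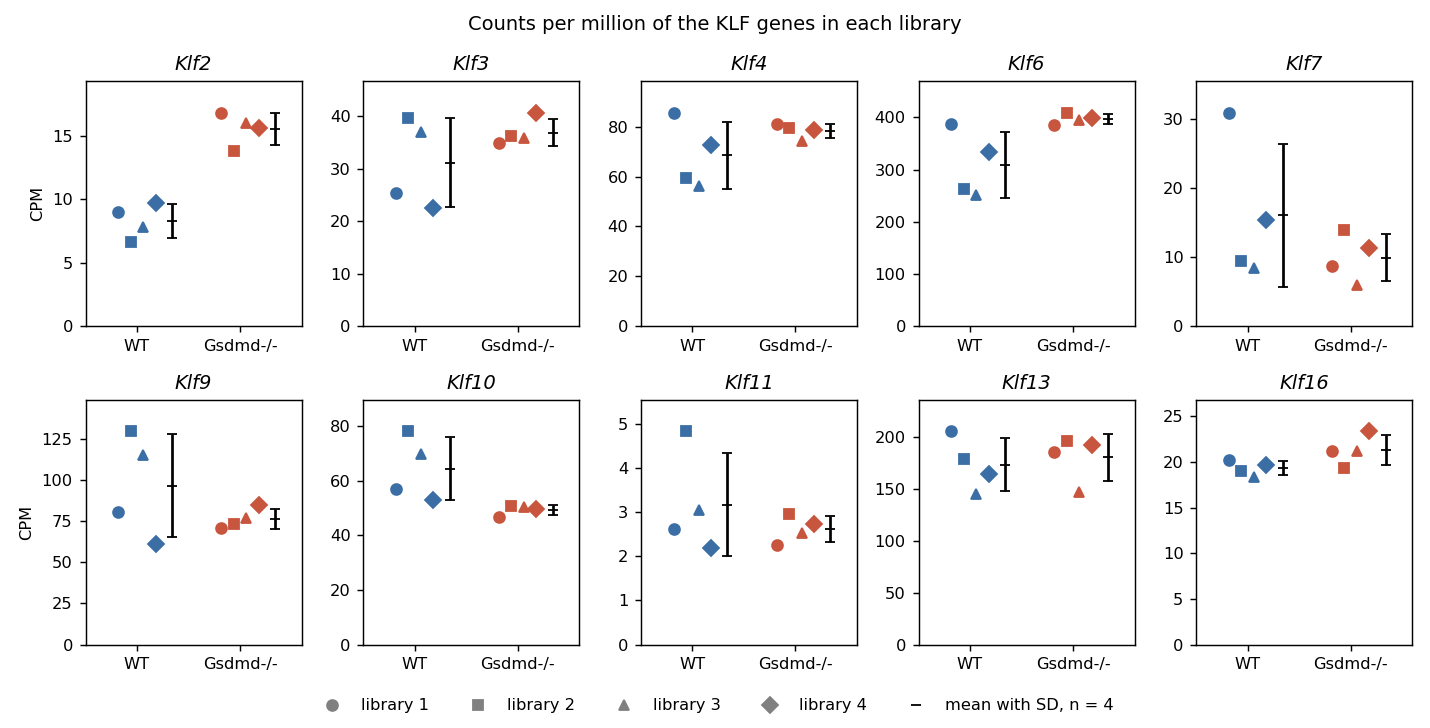
CPM of the 10 KLF genes in each WT (blue) and Gsdmd-/- (red) library, on linear axes that start at 0. The marker shape gives the library number and the bars the mean with SD (n = 4). Klf2 and Klf10 are the genes whose genotypes do not overlap.

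Klf3, the member that recruits CtBP, ran against Klf4 and Klf6 among the WT libraries. Its levels were 25.4, 39.7, 37.1 and 22.5 CPM in WT 1 to 4 and 34.95, 36.2, 35.9 and 40.7 CPM in Gsdmd-/- 1 to 4. WT 2 and WT 3 were at the level of the Gsdmd-/- libraries, while WT 1 and WT 4 lay below all of them. The log2 ratio of 0.24 (SE 0.172) therefore rose to 0.62 without WT 2 and WT 3. A pair of annotated transcripts overlaps Klf3, with 75 and 31 counts over all libraries against 4425 for Klf3, and the kit used does not mark the strand.

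Among the members that can recruit Sin3A, Klf10, which responds early to TGF-beta, was lower in Gsdmd-/- macrophages. It had 57.1, 78.1, 70.0 and 52.9 CPM in WT 1 to 4 and 46.7, 51.0, 50.3 and 49.6 CPM in Gsdmd-/- 1 to 4. Every Gsdmd-/- library was below every WT library, the nearest being WT 4 and Gsdmd-/- 2. The means were 64.5 ± 11.6 and 49.4 ± 1.89 CPM (SD, n = 4 each), a log2 ratio of -0.39 (SE 0.122) that was -0.16 without WT 2 and WT 3. With Klf2, it made 2 of 10 genes without overlap of the genotypes, where 7.6% of all genes showed none (3.48% higher and 4.12% lower in Gsdmd-/-). Klf10 lies on chromosome 15 like Gsdmd, 37.6 megabases away.

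Klf11, its closest relative, was the least abundant of the 10. It had 2.62, 4.83, 3.05 and 2.19 CPM in WT 1 to 4 and 2.25, 2.96, 2.54 and 2.72 CPM in Gsdmd-/- 1 to 4, from 36 to 79 counts per library. All 4 Gsdmd-/- libraries lay inside the WT range. The log2 ratio of -0.28 (SE 0.258) was -0.01 without WT 2 alone and 0.12 without WT 2 and WT 3.

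Klf9, a gene induced by glucocorticoids, had 80.3, 129, 115 and 61.1 CPM in WT 1 to 4 and 70.7, 73.1, 76.9 and 84.6 CPM in Gsdmd-/- 1 to 4. WT 2 and WT 3 were above every other library and WT 4 was below every other. The log2 ratio of -0.34 (SE 0.202) was 0.11 without WT 2 and WT 3, -0.17 without WT 2 alone and -0.50 without WT 4 alone.

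Klf13 and Klf16 varied least with genotype. Klf13, known for the induction of the chemokine CCL5 in T cells, had 206, 179, 145 and 164 CPM in WT 1 to 4 and 186, 196, 148 and 193 CPM in Gsdmd-/- 1 to 4, with a log2 ratio of 0.06 (SE 0.126). The lowest library of each genotype was number 3, and the direction of the fold change was lost without WT 3 (-0.02) and without WT 2 and WT 3 (-0.04). The log2 ratio of Klf13 rose to 0.15 without WT 1 and to 0.14 without Gsdmd-/- 3. Klf16 had 20.2, 19.1, 18.4 and 19.7 CPM in WT 1 to 4 and 21.2, 19.3, 21.2 and 23.4 CPM in Gsdmd-/- 1 to 4, with a log2 ratio of 0.14 (SE 0.0939). The largest ratio between any libraries was 1.27 for Klf16, against 5.24 for Klf7.

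Of the 10 genes, 6 had a log2 ratio above 0 and 4 below, with a median of 0.10, beside 48.5% above 0 and a median of -0.01 over all genes tested. Without WT 2 and WT 3, which leaves 2 WT and 4 Gsdmd-/- libraries, 2 of the 10 genes (Klf2 and Klf3) had an adjusted p under 0.05, where 1.21% of 13288 genes had one. In the same fit, 3 genes (Klf2, Klf3 and Klf7) met the cutoff of the study, where 6.19% of all genes did. The genotypes did not overlap in 4 genes (Klf2, Klf3, Klf7 and Klf10) then, beside 22.7% of all genes. The log2 ratio of Klf2 was 0.73 in this fit, and those of Klf4, Klf9, Klf11 and Klf13 had the opposite sign to the fit with all libraries.

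**Figure D3:**
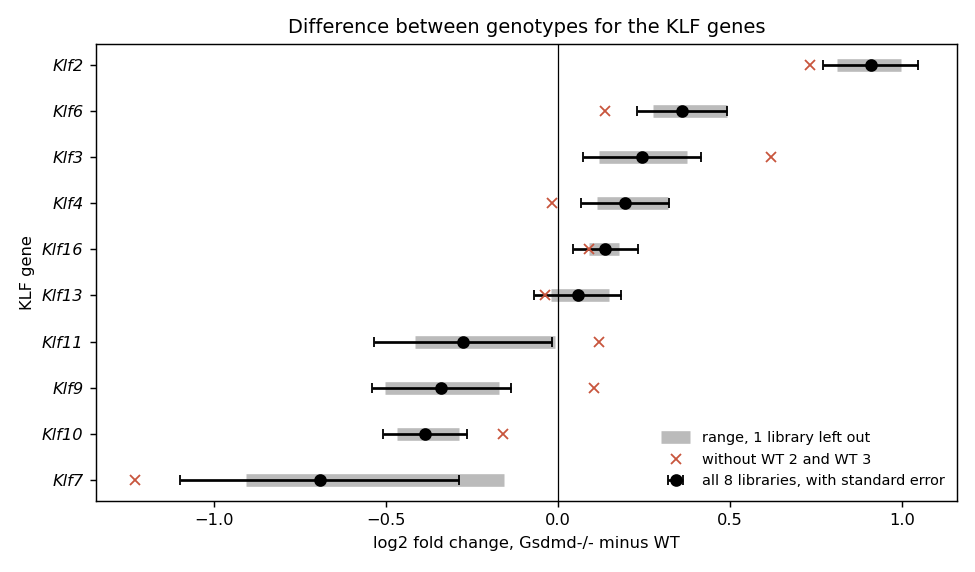
Log2 fold change (Gsdmd-/- minus WT) of the KLF genes with its standard error (black), the range when 1 library is left out (grey) and the value without WT 2 and WT 3 (red cross). Klf2 stays above 0.7 throughout, whereas Klf4, Klf9, Klf11 and Klf13 cross 0 without WT 2 and WT 3.

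The KLF genes split into opposite patterns among the WT libraries. WT 2 and WT 3 were the highest WT libraries for 4 genes, Klf3, Klf9, Klf10 and Klf11, and the lowest for 5 genes, Klf2, Klf4, Klf6, Klf7 and Klf16, while Klf13 followed neither order. Over all genes tested, WT 2 and WT 3 were the highest WT pair in 29.4% and the lowest in 28.7% of genes. Among the Gsdmd-/- libraries, Gsdmd-/- 1 was the lowest for Klf3, Klf6, Klf9, Klf10 and Klf11 and the highest for Klf2 and Klf4.

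The spread was larger in WT than in Gsdmd-/- libraries for 9 of the 10 genes, Klf16 being the exception. The coefficient of variation was 20.6% in WT and 2.49% in Gsdmd-/- libraries for Klf6, 19.6% and 3.64% for Klf4, 18.0% and 3.83% for Klf10, and 16.3% and 8.11% for Klf2. A larger SD of log2 CPM in WT was found in 71.7% of all genes tested, with medians of 0.236 and 0.157. Without WT 2 and WT 3, the SD of log2 CPM was larger in WT for 8 of the 10 genes, Klf2 and Klf16 being the exceptions, and for 53.7% of all genes.

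**Figure D4:**
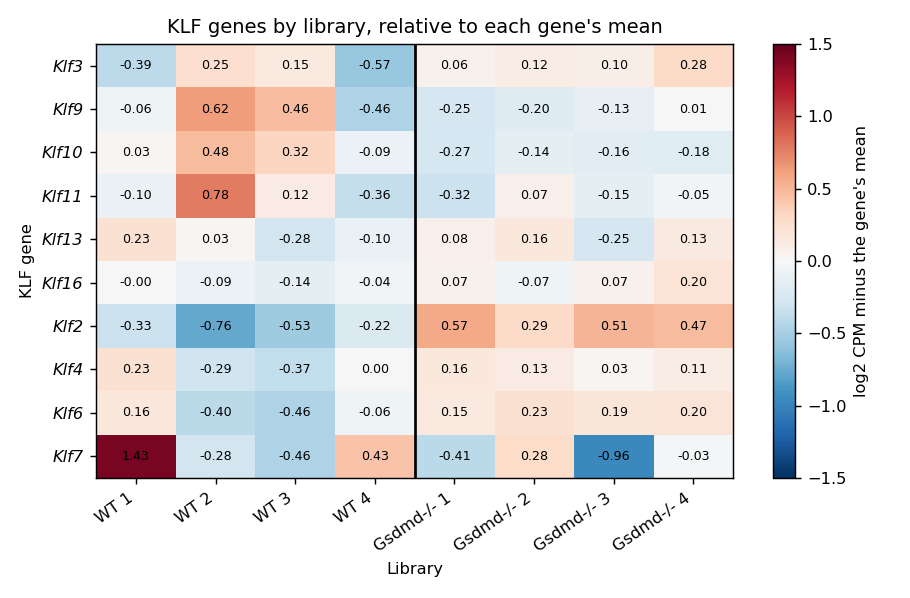
Log2 CPM of each KLF gene in each library minus the mean of that gene over the 8 libraries (red above, blue below, values printed). WT 2 and WT 3 are above the other WT libraries in the top 4 genes and below them in Klf2, Klf4, Klf6 and Klf7.

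Likeness of pattern was measured as Pearson's r of log2 CPM over the 8 libraries after the mean of each genotype had been subtracted, so that the difference between genotypes did not enter. The points share library depth and the gap between WT 2 and WT 3 and the other WT libraries. Klf3 and Klf9 were most alike among the 10 genes (r = 0.985), then Klf4 and Klf6 (r = 0.97), Klf3 and Klf10 (r = 0.95) and Klf9 and Klf10 (r = 0.95), and Klf2 ran most clearly against Klf11 (r = -0.96) and Klf10 (r = -0.94). The pairs with the closest fingers had r = 0.64 (Klf2 with Klf4), r = 0.87 (Klf6 with Klf7) and r = 0.93 (Klf10 with Klf11). Over the 6 libraries left without WT 2 and WT 3, these pairs had r = -0.26, 0.73 and 0.91, Klf2 with Klf4 thus changing sign. Klf3 with Klf9 then had r = 0.93, Klf4 with Klf6 r = 0.81, Klf3 with Klf10 r = 0.59, Klf9 with Klf10 r = 0.72, Klf2 with Klf11 r = -0.91 and Klf2 with Klf10 r = -0.73. Over 8224 genes with a mean of at least 10 CPM, those most like Klf2 were 1110059G10Rik (r = 0.99), Ccdc115 and Dhx16 (r = 0.98 each), and those most like Klf6 were Ap5b1, Me2 and Eps8 (r = 0.99 each). Klf9 was most like Efcab14, Ncoa4 and Mavs (r = 0.99 each), and Klf13 most like Vps8 (r = 0.996), Gramd1b and Mfsd4a (r = 0.99 each). Over the 6 libraries, these 12 values lay between 0.90 (Klf6 with Eps8) and 0.999 (Klf13 with Vps8). These partners were picked as the highest of 8224 genes over libraries that include these 6. High r was thus favored by the selection, and the values over 6 libraries are no independent check.

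The SP genes, whose products share the finger type of KLFs and bind the same GC boxes, showed no call. Of 9 listed, 4 were tested and none had an adjusted p under 0.05 or met the cutoff of the study in edgeR, nor an unadjusted p under 0.05, and 0 had an adjusted p under 0.05 by DESeq2, limma voom or the exact test. Sp1 was at 70.6 ± 12.5 and 68.3 ± 11.5 CPM and Sp3 at 53.7 ± 5.30 and 60.2 ± 4.22 CPM in WT and Gsdmd-/- macrophages (SD, n = 4 each). The largest difference was that of Sp4, at 3.25 ± 0.829 and 4.63 ± 1.06 CPM with overlap (SD, n = 4 each, log2 ratio 0.51, SE 0.234, adjusted p = 0.424).

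Of 17 genes for corepressors and coactivators that KLFs use, all were tested and none was called by either rule, and log2 ratios were positive in 8 and negative in 9. By edgeR 4 of the 17 had an unadjusted p under 0.05, as 12% of all genes did, and 0 were called by DESeq2, limma voom or the exact test. Ctbp1 was at 180 ± 27.8 and 193 ± 9.89 CPM and Sin3a at 32.9 ± 0.911 and 31.4 ± 1.81 CPM (SD, n = 4 each).

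Upstream of Klf2 and Klf4, the kinases MEKK2, MEKK3, MEK5 and ERK5 and the MEF2 factors are known to induce both genes, and class II histone deacetylases and the CCM proteins to hold them down. Of 16 such genes, all were tested, none had an adjusted p under 0.05, and 1, Heg1, a receptor that anchors the CCM proteins, met the cutoff of the study on the lower side, where 3.28% of all genes did. Heg1 was at 4.20 to 19.2 CPM in WT and 2.84 to 4.44 CPM in Gsdmd-/- libraries, with overlap (log2 ratio -1.61, SE 0.497, adjusted p = 0.248). Heg1 no longer met the cutoff with limma voom or without WT 2 and WT 3, where its log2 ratio was -0.22. Hdac4 and Hdac5, class II histone deacetylases, were lower without overlap of the genotypes, as 4.12% of all genes were, with log2 ratios of -0.36 and -0.23 and adjusted p of 0.212 and 0.221. Mapk7, which encodes ERK5, was at 29.2 ± 4.89 and 31.6 ± 1.45 CPM, and Mef2a at 192 ± 33.7 and 239 ± 17.7 CPM (SD, n = 4 each, adjusted p = 0.760 and 0.350). By edgeR 4 of the 16 had an unadjusted p under 0.05 (12% of all genes), DESeq2 called 2, Heg1 and Hdac5 (2.26% of all genes), and limma voom (0.333%) and the exact test (1.89%) called 0. The median log2 ratio of the list was 0.00.

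Of 19 genes known to respond to KLF2, KLF4 or KLF6 in some cell type, 14 were tested and none had an adjusted p under 0.05. Bcl6, which encodes a repressor that KLF6 is known to hold down, and Thbd, which encodes thrombomodulin and is induced by KLF2 in endothelium, met the cutoff of the study on the lower side, where 3.28% of all genes did, and 4.12% of all genes were lower without overlap. Bcl6 went from 9.19 ± 2.45 to 4.55 ± 0.548 CPM between WT and Gsdmd-/- libraries (SD, n = 4 each), which did not overlap (log2 ratio -1.01, SE 0.207, adjusted p = 0.0861). Thbd had 9.51 ± 1.63 and 6.53 ± 1.02 CPM, its genotypes being separate as well (log2 ratio -0.54, SE 0.166, adjusted p = 0.248). Without WT 2 and WT 3 the log2 ratio of Bcl6 was -0.73, and that of Thbd was -0.32 and no longer met the cutoff. By edgeR 2 of the 14 had an unadjusted p under 0.05 (12% of all genes), DESeq2 (2.26%) and the exact test (1.89%) each called 1, Bcl6, and limma voom (0.333%) called 0. The list had 7 genes above and 7 below 0, and Nos3, Sele and Tek were among those with too few counts to be tested.

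Of 13 glucocorticoid-induced genes, the group that includes Klf9 by its regulation, 10 were tested and 2 were higher at an adjusted p under 0.05, where 0.139% of all genes were, and the list median was -0.11. They were Dusp1, a phosphatase of MAP kinases (54.5 ± 6.89 and 124 ± 15.3 CPM, log2 ratio 1.19, SE 0.119, adjusted p = 0.00178) and Sgk1, a kinase (330 ± 4.59 and 444 ± 23.0 CPM, log2 ratio 0.43, SE 0.0738, adjusted p = 0.0468). Without WT 2 and WT 3 the adjusted p of Sgk1 was 0.0652, with a log2 ratio of 0.43, and Dusp1 stayed called with 1.05. Dusp1 is also on the list of immediate-early genes below and is counted in both lists. Fkbp5, Tsc22d3 and Per1, common readouts of the receptor, had log2 ratios of -0.23, -0.45 and -0.26 and adjusted p of 0.591, 0.351 and 0.599. Over the 10 tested genes of the list, 4 were above and 6 below 0.

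Of 13 genes of the TGF-beta pathway, which induces Klf10 and Klf11, 12 were tested, none had an adjusted p under 0.05, and 1, Pmepa1, a feedback inhibitor of the pathway, met the cutoff of the study on the lower side (3.28% of all genes). Pmepa1 had 0.794 to 2.31 CPM in WT and 0.464 to 1.07 CPM in Gsdmd-/- libraries (log2 ratio -1.28, SE 0.403, adjusted p = 0.260). By edgeR 3 of the 12 had an unadjusted p under 0.05 (12% of all genes), and DESeq2 (2.26%), limma voom (0.333%) and the exact test (1.89%) called 0. The median log2 ratio of the tested genes was -0.10, and 4 were above and 8 below 0.

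Immediate-early genes, which like Klf2, Klf4, Klf6 and Klf10 can be induced within minutes of a stimulus, were set beside the KLF genes last. Of 16 listed, 15 were tested, and 6 were higher at an adjusted p under 0.05 (0.139% of all genes) and none lower, with a list median of 0.53. They were Egr1, Ier2, Dusp1, Fos, Zfp36 and Myc, with log2 ratios of 3.59, 1.19, 1.19, 1.13, 0.97 and 0.51 and adjusted p of 0.00590, 0.0146, 0.00178, 0.00590, 8.20e-04 and 0.0361. DESeq2 (2.26% of all genes) and the exact test (1.89%) called 11 of the 15 each, which include Jun and Atf3 on the lower side (log2 ratios -0.58 and -0.54). At the cutoff of the study 9 were higher (1.54% of all genes) and 2, Jun and Atf3, were lower (3.28%). Without WT 2 and WT 3, Jun (-0.29), Atf3 (-0.32) and Junb (0.44 from 0.53) no longer met it. Earlier results of these data had already shown part of this group, so its direction is not independent evidence. Of the 4 KLF genes named with them, Klf2 had the only log2 ratio above 0.5, those of Klf4 and Klf6 were 0.19 and 0.36, and that of Klf10 was -0.39.

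**Figure D5:**
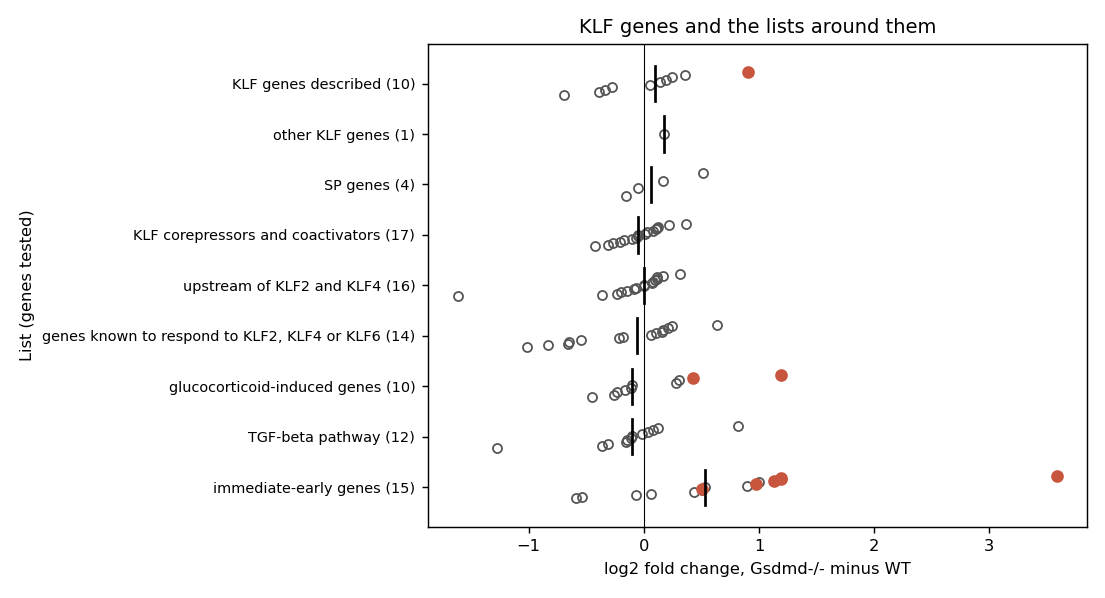
Log2 fold change (Gsdmd-/- minus WT) of each tested gene of the 10 KLF genes and of 8 lists around them, with the number tested in brackets, filled red points for an adjusted p under 0.05 and a bar at the median. The immediate-early genes have a median of 0.53 and the KLF genes of 0.10.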

How the data were processed

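RNA of bone marrow-derived macrophages was made into TruSeq libraries and sequenced by a company. The authors deposited raw read counts per gene for 8 libraries in 1 table, and the submitters' processing notes name the genome build mm10. The aligner, the counting tool and the annotation are not given in the sources used here. All values were checked to be whole numbers, and each column was matched to its sample by label. Of 54532 genes, 54495 were found by identifier in GENCODE M21 (GRCm38), which gave positions and exon lengths, and promoter windows came from RefSeq (GRCm38.p6).

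Counts were filtered with filterByExpr, scaled by TMM and compared, WT against Gsdmd-/-, across all genes with the quasi-likelihood test of edgeR 4.0.16 (R 4.3.3), two-sided, without covariates, and Benjamini-Hochberg adjustment over 12911 genes. CPM were scaled by these factors, with a prior count of 2 where logged. The test was checked on simulated counts. Interval limits at 0 counts cover counting error only.

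The members and lists were chosen with earlier results of these data known. Named were all 10 KLF genes, Gsdmd, every list gene with an adjusted p under 0.05, up to 4 genes per list at the cutoff of the study, and the 3 genes most like a KLF gene that was called or among the 3 with the highest mean CPM, not scaled by length. Klf8, the SP, corepressor, kinase and MEF2 genes, Fkbp5, Tsc22d3 and Per1, the untested genes, the marker genes, Hdac4 and Hdac5, and Jun, Junb and Atf3 were named after their values were seen. As alternatives, RLE and upper-quartile scaling, no filter, a minimum of 10 counts per library, limma voom (limma 3.58.1), DESeq2 1.42.0, the exact test of edgeR, leaving out each library, and a block for the replicate number were tried. Leaving out WT 2 and WT 3 together was added after seeing the data.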

Additional observations from a re-analysis of the deposited data

Results flagged for a closer look

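Of 56 groups of 4 libraries examined (each genotype, for the KLF genes, Gsdmd and the list genes that were called or at the cutoff of the study), 1 held a library far from the other 3 by Dixon's criterion at 0.829. It was Ier3 in Gsdmd-/- 3, at 58.2 CPM against 48.2 to 49.5 CPM in the other Gsdmd-/- libraries. About 1 in 20 groups is marked in this way by chance. None of the 10 KLF genes was marked, Klf7 in WT 1 included.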

How the results depend on the processing

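Of the log2 fold changes of the 10 KLF genes under 17 alternatives, those of Klf2, Klf3, Klf6, Klf7, Klf10 and Klf16 kept their direction in all. Without WT 2 and WT 3 the values of Klf4, Klf9, Klf11 and Klf13 turned to -0.02, 0.11, 0.12 and -0.04, and without WT 3 alone that of Klf13 was -0.02. Klf11, with 36 to 79 counts per library, has the fewest counts of the 10. Whether the replicate numbers pair the libraries was checked by the correlation of same-numbered deviations from the genotype means, which was 0.04, 0.35, 0.09 and -0.43 for numbers 1 to 4, so they share only a number. With the replicate block, 25 genes in all and 0 of the 10 KLF genes had an adjusted p under 0.05, in place of 45 and 1, and 1 SP gene was at the cutoff of the study in place of 0, while no other count moved by over 1.5 times. Over all genes, those with an adjusted p under 0.05 numbered 292 with DESeq2, 244 with the exact test of edgeR, 109 with no filter, 161 without WT 2 and WT 3, and 14 to 84 with 1 library left out (84 without WT 4, 14 without WT 3 or Gsdmd-/- 1, 2 or 3, 21 without WT 2 and 22 without Gsdmd-/- 4). Counts of KLF genes without overlap, at the cutoff and at the adjusted p were 4, 3 and 2 without WT 2 and WT 3, and 2 to 4 (4 without WT 1), 1 to 2 (2 without WT 3 or WT 4) and 0 to 1 with 1 library left out, and 2 were at the cutoff with no filter. Of the lists at the cutoff, SP genes had 1 with upper-quartile scaling, no filter or limma voom and 0 to 1 with 1 library left out (1 without WT 1 or Gsdmd-/- 3). The TGF-beta list had 0 with at least 10 counts, 2 with limma voom and 1 to 3 (3 without WT 4) with 1 library left out. Genes upstream of KLF2 and KLF4 had 0 with limma voom and 0 without WT 2 and WT 3, and genes that respond to KLF2, KLF4 or KLF6 had 4 with no filter and 1 to 3 with 1 library left out (1 without WT 2, WT 3 or Gsdmd-/- 4). Glucocorticoid-induced genes had 3 without WT 2 and WT 3 and 1 to 2 with 1 library left out (2 without WT 1, WT 4 or Gsdmd-/- 3), and corepressors and coactivators 1 and 0 to 1 (1 without WT 3, Gsdmd-/- 2 or Gsdmd-/- 4). The cause of these changes was not tested.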
